A study of Mus musculus with 10 samples.

Results

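Peroxisomal beta-oxidation, the shortening of fatty acids inside peroxisomes, was read through 9 of the 16874 genes in the liver expression table. They are the genes whose symbol was Ehhadh, Hsd17b4, Acaa1a, Acaa1b, Scp2, Ech1, Eci2, Decr2 or Pecr, and they were grouped by enzyme role. Levels are FPKM (fragments scaled to transcript length and library total), and all 9 genes passed the filter on low values that left 11242 genes to test. Log2 fold changes are DEHP over CMC on the scale log2(FPKM + 0.5). Both groups were male C57BL/6 mice in which Pparg, encoding the nuclear receptor PPAR gamma, had been deleted in liver only. The CMC group (5 libraries) received carboxymethylcellulose by gavage as a 0.5% vehicle, and the DEHP group (5 libraries) received the plasticizer diethylhexyl phthalate at 2500 mg/kg. Groups had 12 mice of 20 to 30 g, and no label ties a library to a mouse, so p-values measure only the spread between these samples. Age, treatment length and the driver of the deletion are not stated in the labels. Mice with intact Pparg were not analysed here, and the effect of the deletion itself is therefore not measured.

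Peroxisomes shorten very long chain, branched chain and dicarboxylic fatty acids and the side chain of bile acid precursors, which mitochondria handle poorly. An acyl-CoA oxidase makes the first double bond and releases hydrogen peroxide, a bifunctional enzyme adds water and oxidizes the product, and a thiolase cuts off acetyl-CoA or propionyl-CoA. Auxiliary isomerases and reductases bring unsaturated chains into the spiral. In rodent liver many of these genes are classical targets of the receptor PPAR alpha, which phthalates and other peroxisome proliferators are known to activate.

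The thiolase and bifunctional enzyme genes include the members with the highest fold changes and one that did not pass the test, so the sequences in front of 4 of them are shown for comparison: the pair of near-identical thiolase genes Acaa1a and Acaa1b, Ehhadh, and Scp2. Each is the stretch of 250 bases before the RefSeq transcript start, written 5′ to 3′ on the gene's strand, in build GRCm38.p6. Capitals mark CCAAT or its complement ATTGG. The windows lie at chr16:21787835-21788084 (minus strand), chr9:119157094-119157343 (minus strand), chr9:119341044-119341293 (plus strand) and chr4:108118548-108118797 (minus strand). The windows of Acaa1a and Scp2 also lie inside the span that RefSeq gives these genes, which have transcripts starting further upstream.
Ehhadh: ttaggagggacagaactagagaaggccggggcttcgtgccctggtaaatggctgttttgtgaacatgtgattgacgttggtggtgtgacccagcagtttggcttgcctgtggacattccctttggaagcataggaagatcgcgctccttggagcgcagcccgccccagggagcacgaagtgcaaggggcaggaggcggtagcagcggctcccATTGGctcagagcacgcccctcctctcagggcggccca
Acaa1b: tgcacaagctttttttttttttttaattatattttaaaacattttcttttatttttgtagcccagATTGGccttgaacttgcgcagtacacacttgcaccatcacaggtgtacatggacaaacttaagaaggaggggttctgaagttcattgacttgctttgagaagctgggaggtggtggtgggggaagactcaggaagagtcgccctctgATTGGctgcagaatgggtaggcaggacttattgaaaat
Acaa1a: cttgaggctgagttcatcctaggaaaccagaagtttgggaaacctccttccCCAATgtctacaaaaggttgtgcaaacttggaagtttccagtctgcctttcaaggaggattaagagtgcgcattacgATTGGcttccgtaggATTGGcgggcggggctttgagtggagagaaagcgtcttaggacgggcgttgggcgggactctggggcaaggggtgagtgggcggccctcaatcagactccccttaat
Scp2: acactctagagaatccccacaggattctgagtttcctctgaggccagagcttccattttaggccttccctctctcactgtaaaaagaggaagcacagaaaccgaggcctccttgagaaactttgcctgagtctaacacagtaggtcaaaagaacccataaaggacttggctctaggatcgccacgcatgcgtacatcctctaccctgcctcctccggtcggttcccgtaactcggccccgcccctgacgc
CCAAT occurred once in the Ehhadh window, 2 times in that of Acaa1b, 3 times in that of Acaa1a and not in that of Scp2, read on both strands. Among the other member windows, those of Eci2 and Pecr held CCAAT and those of Ech1 and Decr2 did not. Of 27025 promoter windows of this length, 34.5% held it. In both Ehhadh and Acaa1b the copy nearest the start began 38 bases before it. GGGCGG, the core of a GC box, was found in the windows of Ehhadh, Acaa1a and Scp2 and not in that of Acaa1b, against 32.9% of all windows. The windows of Ech1, Eci2, Decr2 and Pecr held it too. The Eci2 window also lies inside the span that RefSeq gives its gene, and the Decr2 window lies partly inside. The Acaa1b window had a G and C content of 41.6%, against 53.6% for Acaa1a and for Scp2 and 60.4% for Ehhadh. A direct repeat of AGGTCA with any 1 base (N) between the copies, which PPAR alpha binds with its partner RXR, was searched on both strands with up to 2 mismatched letters. It was in none of the 8 member windows in the RefSeq table. Only 3.18% of all windows held a match, so 8 windows are too few to set the members apart. Sites further from the start were not searched.

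CMC library 2 and DEHP library 5 stood apart in an earlier analysis of these data, and the counts of members below were the same, 7 higher and 0 lower, without both.

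After DEHP, 7 of the 9 genes rose and none fell, by limma at a Benjamini-Hochberg adjusted p below 0.05 over all tested genes, where 9.12% of tested genes rose and 2.4% fell. The 7 were Ehhadh, Hsd17b4, Acaa1a, Acaa1b, Ech1, Eci2 and Decr2, and Scp2 and Pecr did not pass. In each of the 7 the lowest DEHP library lay above the highest CMC library, which held for 8.56% of tested genes, and in no member did all DEHP libraries lie below all CMC libraries, which held for 2.14%. The size of the rise was graded, from 19.0-fold for Ehhadh and 7.28-fold for Acaa1b to 1.51-fold for Eci2 in mean FPKM. The median log2 fold change was 0.85 over the members and 0.06 over all tested genes. At an unadjusted p below 0.05 limma called 0 members lower and an exact permutation test called 1, Scp2.

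**Figure D1:**
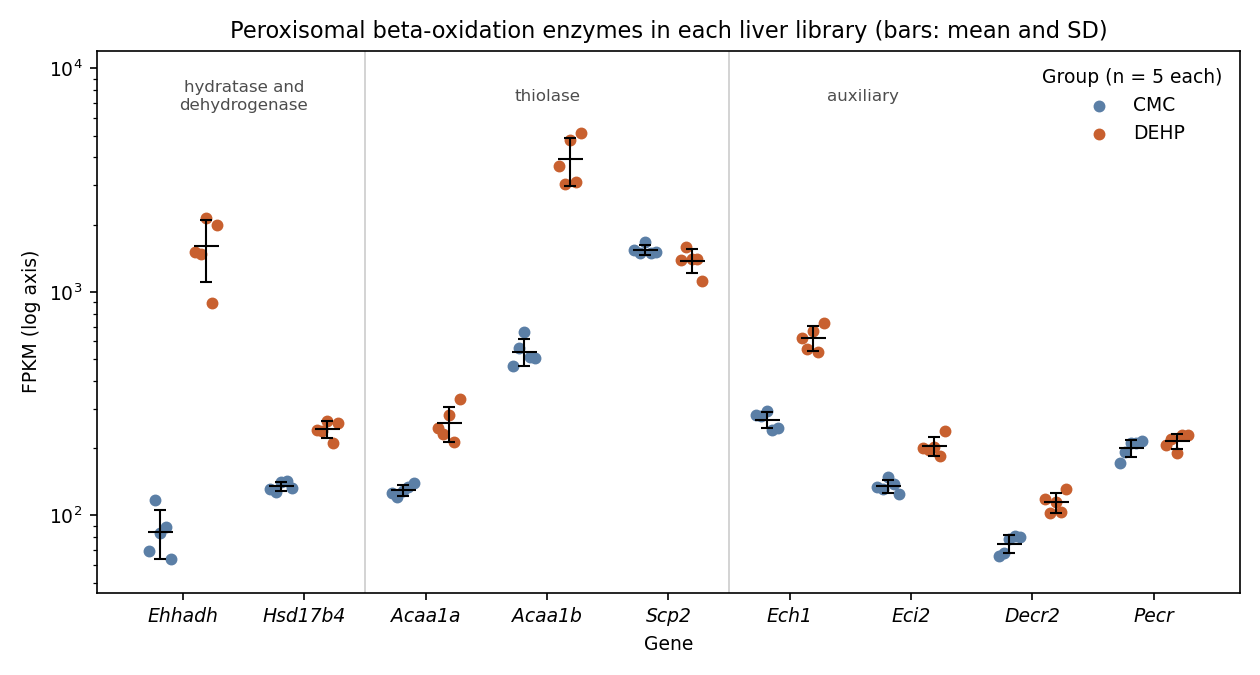
FPKM on a log axis of the 9 genes in each of the 5 CMC (blue) and 5 DEHP (orange) libraries, ordered by enzyme role, with the mean and SD as black bars. The groups are apart for 7 genes and overlap for Scp2 and Pecr, and the gap is widest for Ehhadh, at 63.8 to 117 FPKM against 894 to 2149.6 FPKM.

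Hydration and dehydrogenation, the middle reactions, are carried out by a pair of bifunctional enzymes of opposite stereochemistry. Ehhadh encodes the L-bifunctional enzyme, which takes part in the oxidation of dicarboxylic acids. It stood at 69.5, 117, 83.5, 88.6 and 63.8 FPKM in libraries 1 to 5 of the CMC group, against 1509, 1473, 2149.6, 894 and 2002 FPKM in those of the DEHP group. The lowest DEHP library was 7.62 times the highest CMC library, with DEHP library 4 the lowest of its group. The mean went from 84.5 ± 20.9 to 1606 ± 497 FPKM (SD, n = 5 each), and the log2 fold change was 4.21 (SE 0.24, limma adjusted p = 4.07e-06), the 5th highest of all tested genes. Ehhadh lies on chromosome 16 from 21761285 to 21787834 in GRCm38. It was also the member that varied most, with a coefficient of variation of 24.8% in CMC and 30.9% in DEHP libraries.

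Hsd17b4 encodes the D-bifunctional enzyme, needed for very long chain and branched chain acids and for bile acid synthesis. It stood at 131, 127, 141, 142 and 132 FPKM under CMC, against 242, 238, 263, 212 and 259.9 FPKM under DEHP. The groups did not overlap, and both were tight, with coefficients of variation of 5.02% and 8.54%. The mean rose 1.80-fold, from 135 ± 6.77 to 243 ± 20.7 FPKM (n = 5 per group, SD), and the log2 fold change was 0.85 (SE 0.08, limma adjusted p = 7.93e-06). Hsd17b4 lies on chromosome 18 from 50128201 to 50196270.

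The balance within this step turned over. Ehhadh made up 38.2% ± 6.00 of the summed FPKM of the pair in CMC libraries and 86.2% ± 3.24 in DEHP libraries (n = 5 per group, SD). Their sum was 219 ± 20.4 FPKM in CMC and 1848 ± 517 FPKM in DEHP libraries. Within each library, the log2 ratio of Ehhadh to Hsd17b4 was between -1.04 and -0.11 in CMC and between 2.08 and 3.03 in DEHP libraries. The ratio was higher by 3.36 after DEHP (95% interval 2.76 to 3.85, two-sided exact permutation p = 0.00794, adjusted p = 0.00882 over the 10 pairs compared here). That p is the smallest that 252 regroupings allow, and the ratio was higher in 5 of 5 DEHP libraries than in any CMC library.

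The last reaction is thiolytic cleavage. Acaa1a and Acaa1b encode straight-chain thiolases and lie on chromosome 9, from 119341028 to 119350296 and from 119148043 to 119157093, with 183934 bases between them. Acaa1b was at 467, 559, 659, 513 and 506 FPKM under CMC, against 3646, 3053, 4775, 3101 and 5126 FPKM under DEHP. All DEHP values were above all CMC values, with DEHP libraries 3 and 5 highest. The mean rose 7.28-fold, from 541 ± 73.6 to 3940.3 ± 959 FPKM (n = 5 per group, SD), and the log2 fold change was 2.84 (SE 0.15, limma adjusted p = 1.86e-07).

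Acaa1a was at 125, 121, 128, 134 and 139.99 FPKM under CMC, against 246, 231, 280.1, 212 and 330.2 FPKM under DEHP. Its lowest DEHP library was again number 4 and its highest number 5. The mean rose from 129.8 ± 7.61 to 259.8 ± 46.6 FPKM (n = 5 per group, SD), and the log2 fold change was 0.98 (SE 0.11, limma adjusted p = 4.58e-05). Acaa1b thus rose more than Acaa1a: the log2 ratio of Acaa1b to Acaa1a was 2.05 ± 0.22 in CMC and 3.90 ± 0.13 in DEHP libraries (n = 5 per group, SD), a difference of 1.86 (95% interval 1.54 to 2.11, exact permutation p = 0.00794, adjusted p = 0.00882).

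These genes are near copies, so their values depend on how reads were shared out. In GENCODE M21 the longest reading frames of their transcripts, both of 1275 bases, were 96.5% identical. Of all windows of 100 bases in the Acaa1b transcript, 22.6% occurred unchanged in the Acaa1a transcript, and of all windows of 50 bases 35.5%. Reads from such windows cannot be told apart, and no source used here says how they were counted. The split between the 2 genes is therefore uncertain, and so are the rise of Acaa1a and its ratios to other genes. Whether reads of Acaa1b added to the rise of Acaa1a was not tested. Their sum, which depends less on that split, was 671 ± 72.4 FPKM in CMC and 4200.0 ± 1004 FPKM in DEHP libraries (n = 5 per group, SD).

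Scp2 encodes sterol carrier protein X, a thiolase for branched chains and bile acid intermediates, and from a second promoter the smaller lipid carrier SCP2. The table gives 1 value for both. Scp2 was at 1538, 1498, 1679.7, 1492 and 1515 FPKM under CMC, against 1396, 1588, 1399, 1408 and 1116 FPKM under DEHP. The groups overlapped, because DEHP library 2 lay inside the CMC range, and the other 4 DEHP libraries lay below every CMC library. The means were 1544 ± 77.7 and 1381 ± 169 FPKM (n = 5 per group, SD), and the log2 fold change was -0.17 (95% interval -0.36 to 0.02, limma adjusted p = 0.248). The exact permutation test alone gave an unadjusted p = 0.0476 and 0.1997 after adjustment over all tested genes. Scp2 lies on chromosome 4 from 108043830 to 108144971.

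Against Scp2, both other thiolase genes gained. The log2 ratio to Scp2 was higher in DEHP than in CMC libraries by 3.01 for Acaa1b (95% interval 2.49 to 3.61) and by 1.15 for Acaa1a (95% interval 0.77 to 1.63), each with exact permutation p = 0.00794 and adjusted p = 0.00882. Scp2 held 69.8% ± 1.57 of the FPKM summed over the 3 genes in CMC libraries and 25.5% ± 6.27 in DEHP libraries, while Acaa1b went from 24.3% ± 1.89 to 69.9% ± 6.19 (SD, n = 5 each). Because the Scp2 value also covers the lipid carrier, these shares and the sum are not of thiolase transcripts alone. The sum over all 3 genes went from 2215 ± 142 to 5581 ± 876 FPKM.

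**Figure D2:**
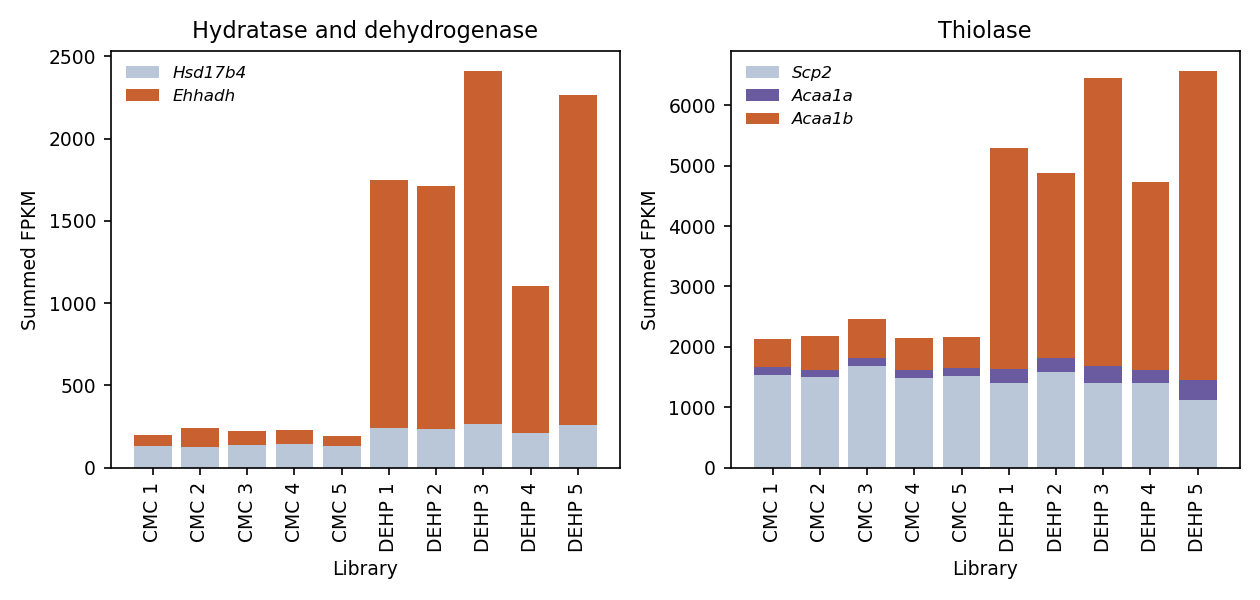
Summed FPKM of the genes of the hydratase and dehydrogenase step (left) and of the thiolase step (right) in each library, with colours for the genes. Ehhadh is the smaller part of the left bars in CMC libraries and 80.9% to 89.1% of them in DEHP libraries, and on the right Acaa1b replaces Scp2 as the largest part in every DEHP library. The Scp2 value covers both the thiolase and the smaller lipid carrier.

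Of the 4 auxiliary genes, 3 rose. Ech1, an isomerase of dienoyl-CoA intermediates that is found in both peroxisomes and mitochondria, was at 281, 279, 293, 242 and 247 FPKM under CMC, against 625, 552, 669, 537 and 728 FPKM under DEHP. Its groups were well apart, and its mean rose 2.32-fold, from 268 ± 22.7 to 622 ± 79.8 FPKM (n = 5 per group, SD), and the log2 fold change was 1.21 (SE 0.09, limma adjusted p = 2.52e-06). Ech1 lies on chromosome 7 from 28825338 to 28832239.

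Eci2 and Decr2 also rose, with log2 fold changes close to each other. Eci2, an enoyl-CoA isomerase that moves double bonds into the place the spiral can use, was at 134, 131, 148, 138 and 125 FPKM under CMC, against 201, 196, 203, 184 and 238 FPKM under DEHP. Decr2, the peroxisomal dienoyl-CoA reductase, was at 66.0, 68.0, 78.3, 80.8 and 79.6 FPKM under CMC, against 119, 102, 115, 104 and 131 FPKM under DEHP. Neither gene's groups overlapped, and DEHP library 5 was the highest for both. The means rose from 135 ± 8.65 to 204 ± 20.2 FPKM for Eci2 (log2 fold change 0.59, SE 0.08, limma adjusted p = 0.000291) and from 74.5 ± 6.98 to 114 ± 11.7 FPKM for Decr2 (log2 fold change 0.61, SE 0.09, limma adjusted p = 0.000544), with SD over n = 5 each. Eci2 lies on chromosome 13 from 34977748 to 35027115 and Decr2 on chromosome 17 from 26081208 to 26090322.

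Pecr, a reductase of enoyl-CoA that works toward chain elongation rather than breakdown, did not pass. It was at 172, 191, 211, 211 and 214 FPKM under CMC, against 207, 219.9, 191, 229 and 228 FPKM under DEHP. The groups overlapped, and DEHP library 3, which was highest for Ehhadh, was lowest for Pecr. The means were 199.9 ± 18.3 and 215 ± 16.2 FPKM (n = 5 per group, SD), and the log2 fold change was 0.11 (95% interval -0.07 to 0.28, limma adjusted p = 0.464). The interval leaves room for a small change in either direction. Pecr lies on chromosome 1 from 72259172 to 72284321.

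The order of the levels was not the same in the 2 groups. By mean FPKM in CMC libraries it was Scp2, Acaa1b, Ech1, Pecr, Eci2, Hsd17b4, Acaa1a, Ehhadh and Decr2. There the ranges of Eci2 and Hsd17b4, of Hsd17b4 and Acaa1a, and of Ehhadh and Decr2 overlapped, and the other neighbours were apart. In DEHP libraries it was Acaa1b, Ehhadh, Scp2, Ech1, Acaa1a, Hsd17b4, Pecr, Eci2 and Decr2. The overlapping neighbours there were Ehhadh and Scp2, Acaa1a and Hsd17b4, Hsd17b4 and Pecr, and Pecr and Eci2. Ehhadh went from the 8th place to the 2nd. Summed over the 9 genes, the share of all FPKM was 0.436% ± 0.0233 in CMC and 1.20% ± 0.218 in DEHP libraries (n = 5 per group, SD).

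Within the DEHP group the members did not all follow the same library. DEHP library 4 was the lowest for 5 members (Ehhadh, Hsd17b4, Acaa1a, Ech1 and Eci2) and the highest for Pecr. DEHP library 5 was the highest for 5 members (Acaa1a, Acaa1b, Ech1, Eci2 and Decr2) and the lowest for Scp2. In the CMC group library 3 was the highest for 4 members, Acaa1b, Scp2, Ech1 and Eci2, and library 2 was the highest for Ehhadh.

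Of the acyl-CoA oxidase genes, whose enzymes open the spiral, Acox2 and Acox3 are given here. Acox2, which acts on branched chains and bile acid intermediates, had means of 67.1 ± 3.75 and 87.7 ± 6.00 FPKM and rose (log2 fold change 0.38, SE 0.07, limma adjusted p = 0.00343), a call lost with quantile normalization (adjusted p = 0.0576). Acox3 was at 6.12 ± 1.74 and 6.00 ± 1.05 FPKM (limma adjusted p = 0.987).

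A further 21 listed genes included ones for the activation, transport and release of fatty acids and for peroxisomal protein import and processing. Of these, 19 were tested (Acot5 and Acot6 were too low), and 7 were higher and 0 lower, against 9.12% and 2.4% of all tested genes. Their median log2 fold change was 0.38. The highest-ranked by p were Acot8, a peroxisomal thioesterase, at 17.0 ± 1.47 and 35.5 ± 7.58 FPKM, and Abcd3, an importer of branched chain and dicarboxylic acids, at 129 ± 7.39 and 224 ± 35.7 FPKM. Slc27a2, a very long chain acyl-CoA synthetase, rose from 482 ± 41.6 to 679 ± 29.9 FPKM. Acsl1 and Acot4 had log2 fold changes of 0.38 and 0.75 (limma adjusted p = 0.00987 and 0.0106), and Lonp2, a peroxisomal protease, one of 0.39 (limma adjusted p = 0.0178). The call of Acsl1 was lost with median-of-ratios scaling (adjusted p = 0.0567) and with quantile normalization (adjusted p = 0.127). In the table's own pathway column, 97 non-member rows carry the peroxisome term. Of these 84 were tested, and 30 were higher and 2 lower, or 35.7% higher, against 9.12% of all tested genes.

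Mitochondria run the same chemistry with separate enzymes. In a list of 12 mitochondrial genes 11 were higher and 0 lower, against 9.12% and 2.4% of all tested genes. The median log2 fold change of the list was 0.76. Mecr, which did not pass, encodes a reductase of mitochondrial fatty acid synthesis rather than breakdown. Its log2 fold change was -0.04 (limma adjusted p = 0.841). Peroxisomal enzymes were compared with mitochondrial enzymes of the same or a similar reaction by their ratio within each library. Scaling of the libraries leaves this ratio unchanged apart from the pseudocount. Ehhadh rose more than Hadha, the alpha subunit of the mitochondrial trifunctional protein, with a difference of 3.43 in the log2 ratio (95% interval 2.95 to 3.89). Relative to Acaa2, the mitochondrial thiolase, both Acaa1b and Acaa1a gained, by 2.37 (95% interval 2.06 to 2.72) and by 0.51 (95% interval 0.33 to 0.70) on the log2 scale. Scp2 and Hsd17b4 were not paired with mitochondrial genes. Their log2 fold changes were -0.17, against 0.47 for Acaa2, and 0.85, against 0.78 for Hadha.

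For the auxiliary genes Decr2 and Eci2 the ratio to the mitochondrial gene fell. Decr1, the mitochondrial dienoyl-CoA reductase, was at 62.2, 60.4, 66.4, 64.6 and 65.0 FPKM under CMC, against 133, 129.8, 139, 127 and 147 FPKM under DEHP, a larger rise than that of Decr2. The log2 ratio of Decr2 to Decr1 was lower after DEHP by 0.47 (difference -0.47, 95% interval -0.60 to -0.34), above 0 in 5 of 5 CMC and below 0 in 5 of 5 DEHP libraries. Eci1, the mitochondrial enoyl-CoA isomerase, was at 129.95, 111, 135, 131 and 129 FPKM under CMC, against 330.1, 326, 372, 273 and 427 FPKM under DEHP. The log2 ratio of Eci2 to Eci1 differed by -0.83 (95% interval -0.998 to -0.653). Each of these 5 differences had an exact permutation p of 0.00794 and an adjusted p of 0.00882, and so had every pair but 1 of the 10. Pecr relative to the mitochondrial reductase gene Mecr differed by 0.14 (95% interval -0.14 to 0.41, exact permutation p = 0.278, adjusted p = 0.278).

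**Figure D3:**
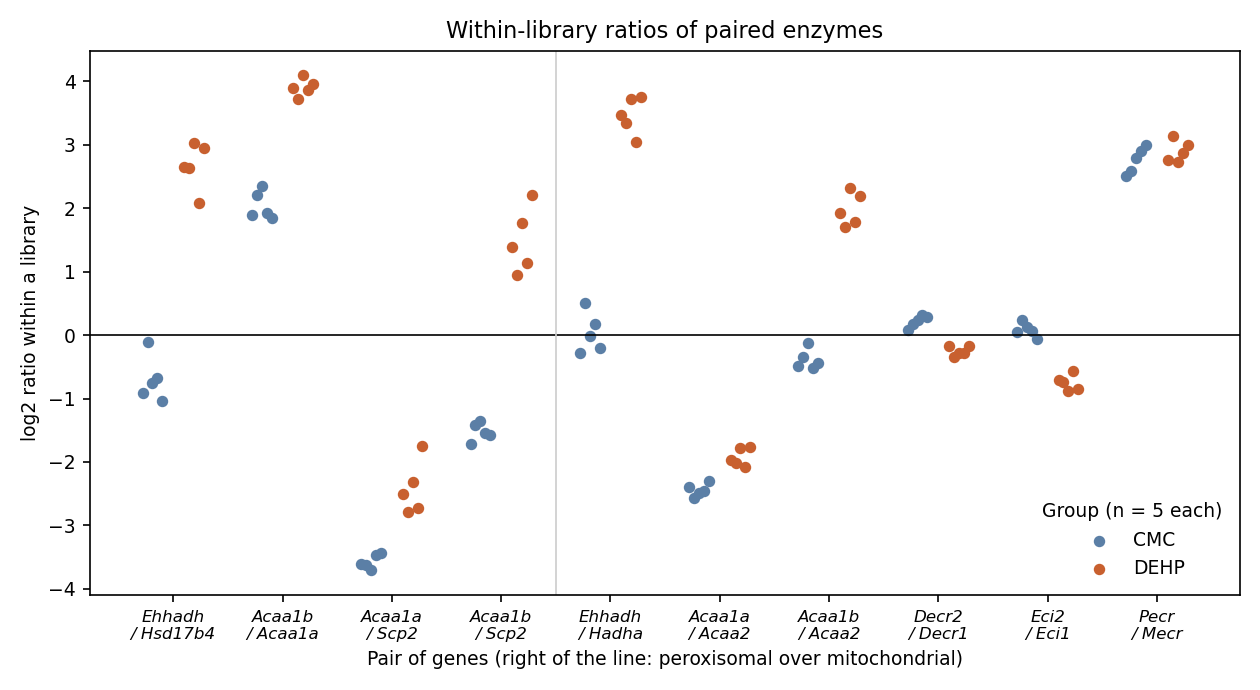
Log2 ratio of paired genes within each library (log2(FPKM + 0.5) of the first minus the second), for the 5 CMC (blue) and 5 DEHP (orange) libraries, with peroxisomal pairs left of the grey line. The groups are apart for every pair except Pecr with Mecr, and the ratio is lower after DEHP for Decr2 with Decr1 and for Eci2 with Eci1.

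**Figure D4:**
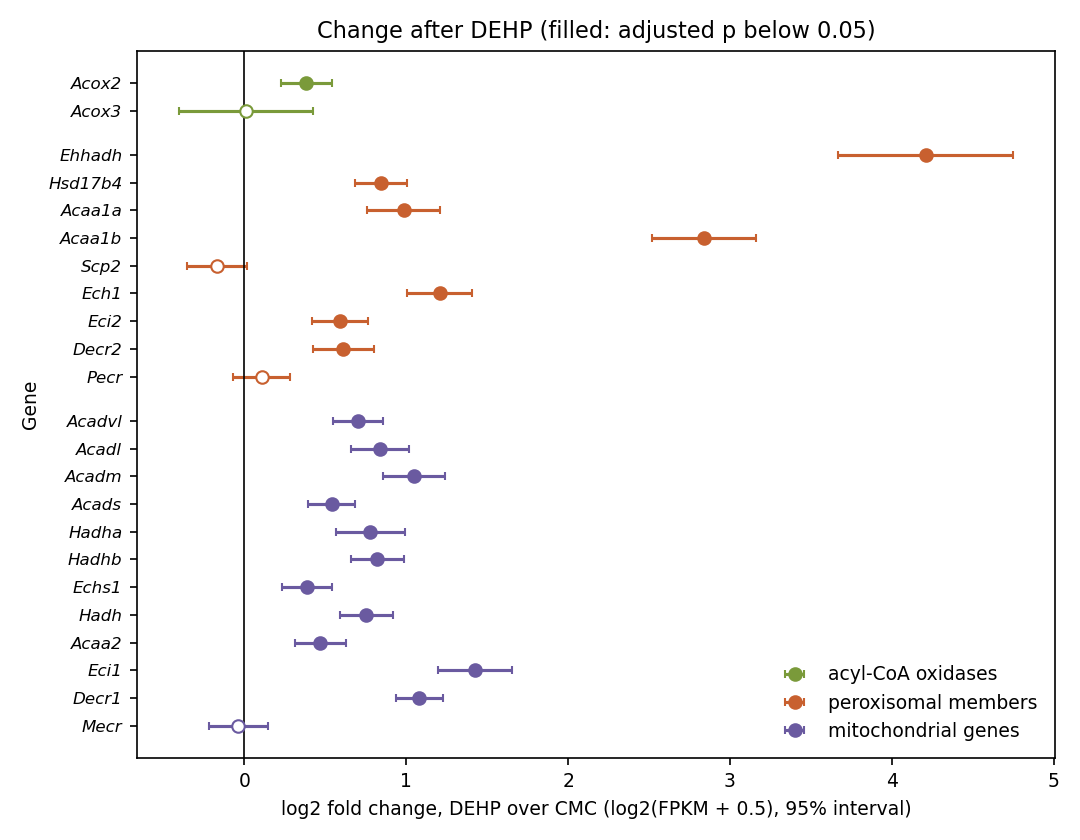
Log2 fold change of DEHP over CMC with its 95% interval from limma for 2 acyl-CoA oxidases, the 9 members and 12 mitochondrial genes, filled where the adjusted p was below 0.05. Ehhadh at 4.21 and Acaa1b at 2.84 stand furthest to the right of the genes plotted, and the intervals of Scp2, Pecr, Acox3 and Mecr include 0.

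For each member, the tested genes with the most similar pattern were found by the root mean square difference of log2(FPKM + 0.5), centred on each gene's CMC mean, over the 10 libraries. Nearest to Ehhadh were Mogat1, which makes diacylglycerol (0.39), and Cyp4a31, a fatty acid hydroxylase (0.48). Ephx2, an epoxide hydrolase of peroxisomes and cytosol (0.06), was nearest to Hsd17b4. Nearest to Acaa1a were Acot8 (0.10) and Hsd17b10, a mitochondrial dehydrogenase (0.12). Slc27a1, a fatty acid transport protein (0.23), and Ucp2, a mitochondrial carrier (0.25), were nearest to Acaa1b. Abhd6 and Nt5e were nearest to Ech1 (0.10 and 0.12), Emc9 and Acads to Eci2 (0.07 and 0.08), and Aldh9a1 and Emc9 to Decr2 (0.06 and 0.08). Scp2 had Ctnnb1 and Copb1 nearest (0.04 and 0.06) and Pecr had Mdh1 and Adh5 (0.06 and 0.07).

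Summed FPKM was 688410 to 747577 per library, and across genes, pairs of libraries correlated at r of 0.976 to 0.986 (CMC), 0.980 to 0.986 (DEHP) and 0.964 to 0.978 (one of each). All 7 hepatocyte markers were above 1 FPKM in every library, and their sum, most of it Alb, was lower in every DEHP than in every CMC library (medians 55926 and 40509.7 FPKM). Its part in the members' rise was not tested. Kupffer cell markers summed to between 61.7 and 82.0 FPKM under CMC and between 71.5 and 89.0 FPKM under DEHP, and 4 adipocyte genes to at most 1.15 and 2.41 FPKM. Ranges of the stellate, endothelial, bile duct, lymphocyte and erythroid sums overlapped between the groups. In bulk liver, fewer cells of a type and less RNA per cell cannot be told apart. Pparg was at 2.40 to 5.90 FPKM in CMC and at 5.50 to 9.40 FPKM in DEHP libraries, and a level per gene does not check a deletion of part of it. Ppara, the receptor gene named above, was at 26.9 to 30.4 FPKM in CMC and at 30.0 to 34.8 FPKM in DEHP libraries.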

How the data were processed

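Liver RNA was sequenced as 10 TruSeq libraries on a HiSeq instrument, per the labels and the series' design text. The authors deposited 1 FPKM value per gene and library, with 2 decimals, per the file headers. The submitters' processing notes name Cuffdiff, mm10 and GRCm38, with no version or role. The aligner and the handling of reads that match several genes are not given in the sources used here. FPKM divides by the library total, so a fall of abundant transcripts raises other values.

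Genes reaching 0.5 FPKM in 5 or more libraries were tested as log2(FPKM + 0.5) with limma 3.58.1 in R 4.3.3 (intensity trend, robust variance) for DEHP over CMC, and p-values were adjusted by Benjamini-Hochberg over 11242 genes, with a threshold of 0.05. This scale understates changes of low genes. The fit was tested on simulated data. Pairs of genes were compared by two-sided exact permutation tests of the within-library difference, adjusted over 10 pairs, with intervals from inverting the test. Levels are means ± SD. Low values placed the relative depth of single libraries between 0.953 and 1 of CMC library 1, an estimate not tested on simulated data, and total depth is unknown.

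Members, lists, pairs and alternatives were chosen with earlier results of these data known. Named are the members, the oxidases, up to 6 genes per other list by smallest p, the genes of the pairs and 2 nearest genes per member. Lonp2 was added after its value was seen, to complete the count of its list. Some genes that the rule names are not reported here. The alternatives tried were a pseudocount of 0.1 or 1, dropping the filter or raising it to 2 FPKM, scaling by median of ratios, by quantiles or after removing the 10 most abundant genes, limma with neither trend nor robust variance, the replicate number as a block, a covariate from 17 clock genes, an exact permutation test per gene, and leaving out libraries. Coordinates and promoters are from RefSeq GRCm38.p6, where 8 of 9 members had a promoter entry, and transcripts from GENCODE M21. Python 3.11.15 was used with Matplotlib 3.10.9 for figures and Biopython 1.88 for alignments.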

Additional observations from a re-analysis of the deposited data

Results flagged for a closer look

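Over 40 named genes, 80 groups of 5 libraries were searched for a library whose gap to its nearest neighbour exceeded 0.71 of the group's range. Chance gives about 1 such group in 20, and 7 were found. The one member was Scp2, at 1679.7 FPKM in CMC library 3 with the next highest at 1538 FPKM. Eci1 was lowest at 111 FPKM and Acadl highest at 124 FPKM in CMC library 2, with the nearest others at 129 and 102 FPKM. In CMC library 1 Mdh1 was lowest at 297 FPKM. Hadh was lowest at 198 FPKM in DEHP library 4. Acaa2 was highest at 1124 FPKM and Hsd17b10 at 423 FPKM in DEHP library 5.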

How the results depend on the processing

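The count of 7 members higher and 0 lower was the same under every limma alternative and with each library left out, with log2 fold changes of 4.09 to 4.40 for Ehhadh, 2.74 to 2.92 for Acaa1b and 0.53 to 0.63 for Eci2 when 1 library was left out. The exact permutation test per gene, whose smallest adjusted p over all genes was 0.0742, passed 0 members and 0 genes in each direction, although at an unadjusted p below 0.05 it took 7 members as higher, 1997 genes as higher and 684 as lower. Over all genes, 1025 higher and 270 lower became 647 and 438 with median-of-ratios scaling, 611 and 546 with quantile normalization, and 590 and 156 with the clock covariate. Higher genes were 79.2% of calls, and 59.6% and 52.8% with those scalings, where the median log2 fold change of all genes was -0.01 and -0.02. Values that changed sign were of genes not past the threshold: Pecr at -0.067 and Adh5 at -0.0086 with quantile normalization, Mecr at 0.051 with the clock covariate and -0.071 to 0.015 with 1 library left out, and Acox3 at -0.059 with median-of-ratios scaling, -0.047 with quantile normalization, -0.011 rescaled without the 10 most abundant genes, -0.11 with the clock covariate, -0.15 without CMC library 2 and DEHP library 5, and -0.18 to 0.10 with 1 library left out. The cause was not tested.

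Replicate numbers name samples only. Deviations of same-numbered libraries from their group means correlated at r of -0.072 to 0.049 over tested genes, and 0 of 5 CMC libraries correlated best with their own number. With the replicate block 816 genes were higher and 229 lower, and 7 members higher and 0 lower. A sign-flip test of the pair differences with this block cannot pass 0.05 (smallest adjusted p = 0.0694). Its differences were 3.36 (Ehhadh with Hsd17b4), 1.86 (Acaa1b with Acaa1a), 1.15 and 3.01 (Acaa1a and Acaa1b with Scp2), 3.43 (Ehhadh with Hadha), 0.51 and 2.37 (Acaa1a and Acaa1b with Acaa2), -0.47 (Decr2 with Decr1) and -0.83 (Eci2 with Eci1). Pair calls did not change with the pseudocount or with 1 library left out. Depth limits cannot be given from FPKM alone.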
